A study of Rattus norvegicus with 6 samples.

Results

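The genes described here encode the secreted Wnt ligands, their receptors and co-receptors, the proteins that help or block the ligands outside the cell, and the core of the pathway inside it. They were taken from the count table by gene symbol (Wnt, Fzd, Sfrp, Dkk, Rspo, Lgr, Ror, Dvl, Axin, Tcf7 and Nkd families, with Frzb, Wif1, Lrp5, Lrp6, Lef1, Ctnnb1, Ryk, Porcn, Wls, Apc and Gsk3b). This gave 48 of the 14475 genes in the table. RefSeq lists 67 rat symbols of these names, and the 19 without a row (10 Wnt genes, Fzd1, Fzd9, Fzd10, Dkk1, Dkk2, Dkk4, Sfrp5, Rspo3 and Rspo4) were not analysed here. The cells were vascular smooth muscle (VSM) cells of male Fischer 344 rats, grown in medium with serum, from the vessel that feeds the soleus muscle (soleus feed artery, SFA). The 2 groups were young (4 months) and old (24 months), with 3 replicate libraries of polyadenylated RNA each and no other agent or allele named. Each group came from 3 rats. Cells grown in a dish lack the flow, pressure and neighboring cells of the artery.

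In the canonical branch of the pathway, a Wnt ligand binds a Frizzled (Fzd) receptor and an Lrp5 or Lrp6 co-receptor, which stops a cytoplasmic complex of Axin, Apc and Gsk3b from marking β-catenin (Ctnnb1) for destruction. β-catenin then enters the nucleus and acts with the Tcf7 and Lef1 family of DNA-binding proteins. Other branches run from ligands such as Wnt5a through Ror and Ryk receptors to the cytoskeleton and to calcium. In the vessel wall the pathway is known for roles in VSM cell proliferation, migration and survival.

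Counts on genes summed to between 44235674 and 59700887 per library, and levels are given as CPM, counts scaled to library size after TMM normalization, with no correction for transcript length, so they do not rank genes by expression. Between libraries of 1 age, Spearman's rho over genes (not independent of each other) was 0.973 to 0.991. Old replicate 1 stood closer to young replicate 1 (0.983) than to the other old libraries (0.979 and 0.973). Of 12 smooth muscle markers, 12 had a row and 11 were lower in old, with a summed level of 15148 to 26472 CPM in young and 5741 to 8547 CPM in old. Of 12 fibroblast markers, 11 had a row and 9 were higher in old, with sums of 1019 to 1491 CPM in young and 1863 to 2728 CPM in old. The 6 of 14 skeletal muscle markers with a row summed to 175 to 393 CPM in young and 38.6 to 67.1 CPM in old. Pericyte markers (5 of 8) summed to 951 to 1510 CPM in young and 675 to 1527 CPM in old. Of these, 4 were lower in old and 1, Pdgfrb, was higher, with means of 770 and 963 CPM. Mcam had means of 89.2 CPM in young and 7.19 CPM in old, and Cspg4 of 320 and 121 CPM, without overlap of the groups. Endothelial markers (6 of 12) summed to 35.1 to 45.2 CPM and 32.9 to 44.1 CPM. Sums were 13.7 to 75.7 CPM and 55.1 to 86.6 CPM for Schwann cell markers (4 of 8), 37.9 to 76.9 CPM and 43.4 to 123 CPM for perineurial and mesothelial markers (3 of 7), and at most 2.9 CPM for macrophage markers (2 of 8).

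Of the Wnt genes, the antagonists Frzb and Sfrp2 and the ligand Wnt9a were higher in old, and the ligand Wnt11 was lower, by the DESeq2 Wald test at the study's thresholds (adjusted p under 0.05, log2 fold change, log2FC, of 1 or more in size). These 4 of 48 genes (8.33%) compare with 5.68% of all genes tested. The 3 called upward (6.25%) compare with a background of 2.30%, and the 1 called downward (2.08%) with 3.38%. Frzb and Sfrp2 reached 10 counts in 3 libraries, the fewest in the table, only with old libraries counted. The upward share therefore supports nothing about the Wnt genes as a set. edgeR's quasi-likelihood test, the main test here, called 0 of the 48 with the same thresholds, beside 0.00691% of all genes, and limma-voom called 0 (0.00% of all genes). At an unadjusted p under 0.05, edgeR gave 10 of the 48 genes (20.8%, background 22.6%), of which 8 were higher (16.7%, background 11.2%) and 2 lower (4.17%, background 11.5%) in old. At an adjusted p under 0.1 with no fold threshold it gave Fzd7, Frzb, Sfrp2 and Dvl2 (8.33%, background 4.55%). A log2FC of 1 or more in size was reached by 8 genes (16.7%, background 11.4%). Of the 48 genes, 26 had a positive log2FC and 22 a negative one, and the median was 0.05, beside 0.02 over all genes. The 3 old libraries lay wholly above or below the 3 young libraries for 9 genes (18.8%, background 29.2%), 6 above (12.5%, background 14.5%) and 3 below (6.25%, background 14.7%). By unadjusted p the share of Wnt genes higher in old was above its background and the share lower in old was below it. By non-overlap of the groups, both shares were below their backgrounds. The direction of the set was not tested. With 3 libraries a side, the smallest two-sided p of an exact permutation test is 0.1. Wnt2, Wnt16, Rspo2 and Frzb reached 10 counts in 4 libraries, Sfrp2 in 5 and the other 43 genes in 6. Without old replicate 1, edgeR called 3 of the 48 genes (Frzb, Sfrp2 and Fzd7) and 732 of all genes, where it called 1 with all libraries.

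**Figure D1:**
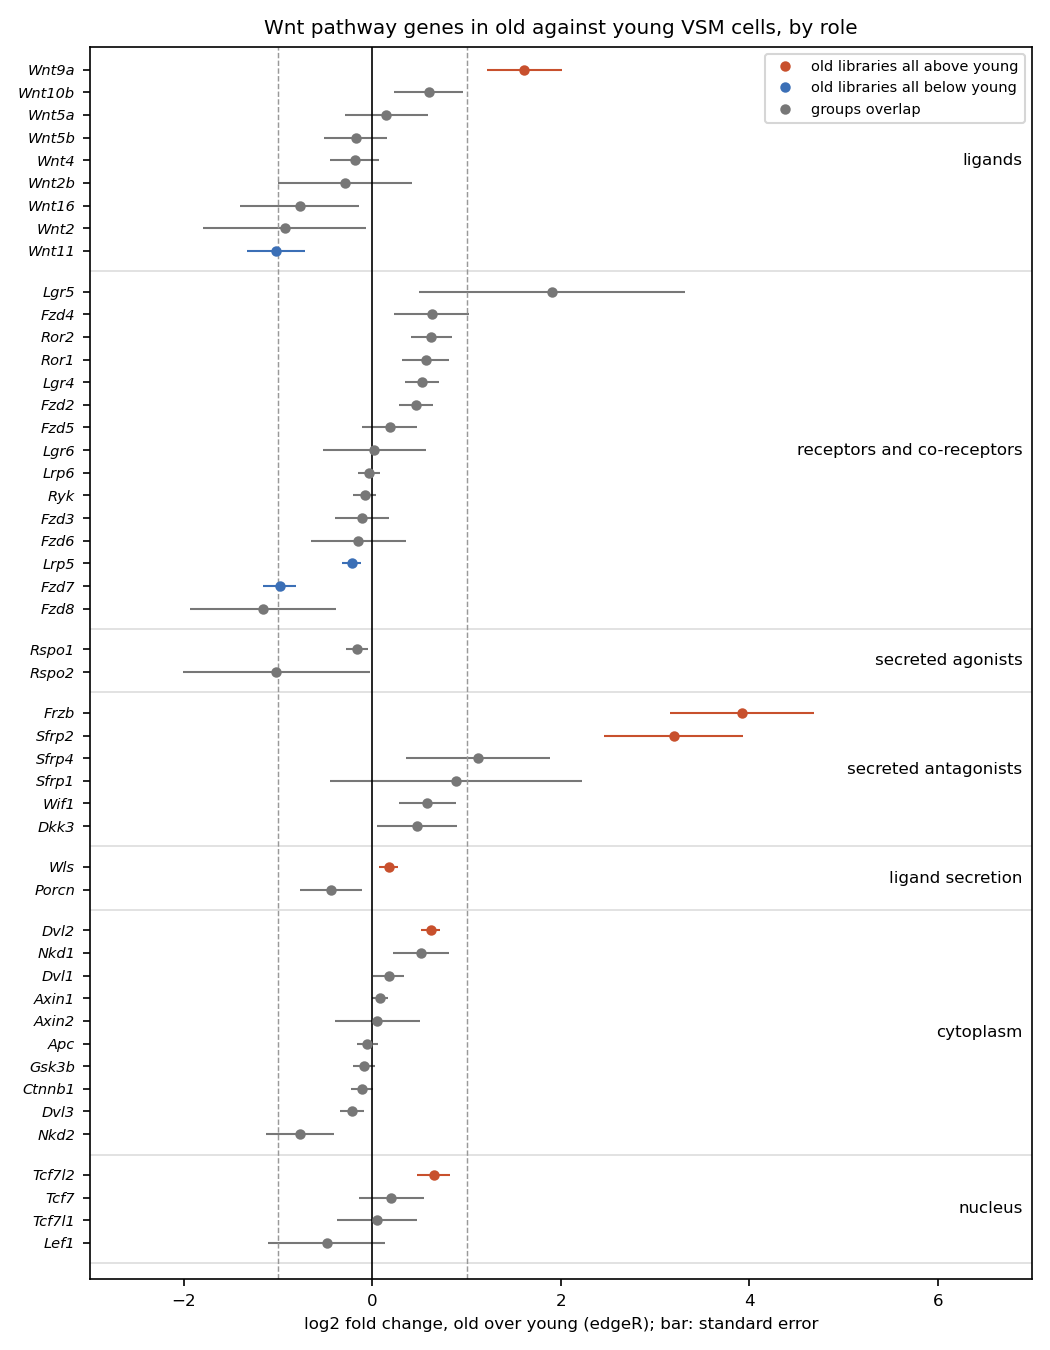
The log2FC of each of the 48 genes (x axis, old over young, edgeR, bars are standard errors) is plotted by role, with dashed lines at -1 and 1, orange where the old libraries all lay above the young, blue where all lay below and grey where they overlapped. Frzb at 3.92 and Sfrp2 at 3.20 lie farthest to the right, while Ctnnb1, Gsk3b, Apc and Lrp6 lie near 0.

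Secreted antagonists bind Wnt ligands or the co-receptors and keep them from signaling. Frzb (secreted frizzled-related protein, ENSRNOG00000007765) and Sfrp2 (ENSRNOG00000009465) belong to the family whose members carry a domain like the ligand-binding part of Frizzled. Frzb had 0.177, 0.166 and 0.122 CPM in young replicates 1, 2 and 3 and 0.603, 2.29 and 4.27 CPM in old replicates 1, 2 and 3. These values stand for 8, 10 and 6 counts in young and 30, 119 and 229 counts in old, so the gene was near the lower end of detection in young VSM cells and passed the study's low-count filter mainly through the old libraries. Its old libraries all lay above the young ones, with old replicate 1 the lowest of the 3. The log2FC was 3.92 (standard error, SE, 0.76, adjusted p = 0.0743 by edgeR and 1.52e-05 by DESeq2). Sfrp2 had 0.753, 0.299 and 0.163 CPM in young and 1.33, 4.75 and 5.02 CPM in old, from 34, 18 and 8 counts and 66, 247 and 269 counts. The groups did not overlap, and old replicate 1 was again the lowest old library. The log2FC of Sfrp2 was 3.20 (SE 0.74, adjusted p = 0.0982 by edgeR and 0.000245 by DESeq2). DESeq2 called Frzb and Sfrp2 in each of the 6 fits that left out 1 library, and edgeR called them in 1 of 6, the fit without old replicate 1. limma-voom gave adjusted p of 0.138 and 0.121. The summed fibroblast markers were higher in the old libraries (1863 to 2728 CPM against 1019 to 1491 CPM), and their part in the difference was not tested. In RNA of whole cultures, a change in the share of cells of a type and a change in RNA per cell cannot be told apart.

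The other 4 secreted antagonists had overlapping groups, and 0 of them passed the DESeq2 or edgeR threshold on the adjusted p. Sfrp4 had 44.0, 25.2 and 12.4 CPM in young and 15.4, 116 and 45.9 CPM in old (adjusted p = 0.406 by edgeR). Sfrp4 and Sfrp1 were both highest in old replicate 2. Sfrp1 had 29.5, 41.3 and 0.468 CPM in young and 23.5, 97.8 and 10.9 CPM in old, so it differed more among libraries of an age than between the ages. Dkk3, placed in this group by its Dickkopf family name alone, had 514, 487 and 449 CPM in young and 337, 536 and 1141 CPM in old. The young libraries of Dkk3 were close together, while its old mean of 671 ± 419 CPM (SD, n = 3) rested on old replicate 3, with a log2FC of 0.47 that became -0.15 when that library was left out. Wif1, which binds Wnt ligands directly, had 1.33, 1.50 and 1.42 CPM in young and 1.45, 2.12 and 2.82 CPM in old. The median log2FC of the 6 antagonists was 1.01, and 6 of 6 were above 0, beside 52.0% of all genes. Frzb and Sfrp2 passed the low-count filter only with old libraries counted, and Dkk3 was below 0 without old replicate 3. The count was not tested and supports nothing about the antagonists as a group.

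**Figure D2:**
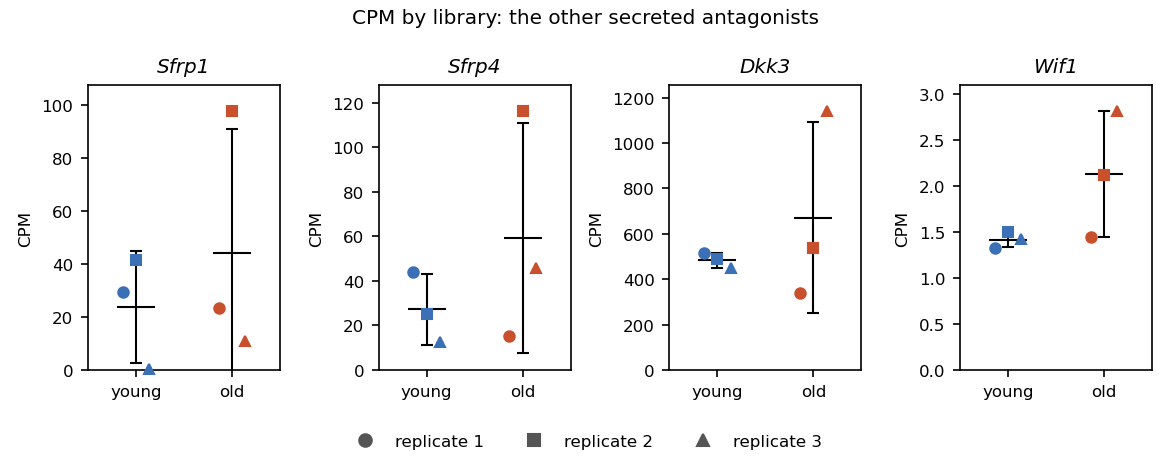
CPM (y axis, linear, from 0) of Sfrp1, Sfrp4, Dkk3 and Wif1 is shown for each library, with young and old side by side, marker shapes for replicate numbers, and lines for the mean and SD of 3 libraries, with bars ending at 0 where they would pass below it. The old libraries spread widely and overlap the young ones, with Dkk3 reaching 1141 CPM in old replicate 3.

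Among the ligands, 9 Wnt genes had a row, of which 3 had higher and 6 had lower values in old. Wnt9a (ENSRNOG00000003066) had 10.7, 10.8 and 5.72 CPM in young and 42.5, 17.7 and 23.2 CPM in old. The lowest old library lay above the highest young one, and old replicate 1 was far above the other old libraries. The log2FC was 1.61 (SE 0.40, adjusted p = 0.107 by edgeR and 0.00192 by DESeq2), and DESeq2 called the gene in each of the 6 fits with 1 library left out. Wnt11 (ENSRNOG00000015982), a ligand known for β-catenin-independent signaling, had 1.79, 1.93 and 2.36 CPM in young and 1.29, 0.693 and 1.01 CPM in old. The groups did not overlap, on 81, 116 and 116 counts in young and 64, 36 and 54 counts in old. Its log2FC was -1.03 (SE 0.31, adjusted p = 0.141 by edgeR and 0.0302 by DESeq2). That DESeq2 call lay close to both thresholds and held in 1 of the 6 fits with a library left out, the fit without old replicate 1. Wnt5a, the main ligand of the Ror receptors, had 18.8, 16.9 and 45.1 CPM in young and 19.2, 32.1 and 38.2 CPM in old. The highest value was in young replicate 3 and the groups overlapped fully (log2FC 0.15, 95% interval -0.91 to 1.20). The direction of Wnt5a turned with single libraries left out. Of the other ligands, Wnt2b had 11.9, 5.88 and 1.20 CPM in young and 4.28, 6.48 and 4.76 CPM in old and Wnt4 ranged from 2.67 to 4.62 CPM over the 6 libraries. Wnt2, Wnt5b, Wnt10b and Wnt16 reached at most 1.01 CPM in any library, with log2FC values from -0.93 to 0.60.

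Ligands leave the cell with the help of Porcn, which attaches their lipid, and Wls, which carries them to the surface. Wls had 383, 400.5 and 415 CPM in young and 438, 435 and 479 CPM in old. The old libraries lay above the young ones, by a log2FC of 0.17 that did not pass the test (95% interval -0.07 to 0.42, adjusted p = 0.336 by edgeR). Porcn had 32.4, 28.1 and 16.2 CPM in young and 14.3, 26.4 and 16.1 CPM in old, and its groups overlapped. The R-spondins, secreted agonists that act through Lgr receptors, had Rspo1 at 36.7, 37.3 and 35.3 CPM in young and 36.7, 32.9 and 28.0 CPM in old (log2FC -0.16, 95% interval -0.44 to 0.12). Rspo2 was at most 0.687 CPM in any library.

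Of 15 receptors and co-receptors, 8 had higher and 7 had lower values in old, with a median log2FC of 0.02. Fzd7 (ENSRNOG00000016119), a Frizzled receptor, had 132, 154 and 174 CPM in young and 95.3, 72.6 and 65.6 CPM in old. Each old library was below each young library, and the log2FC was -0.98 (SE 0.18, adjusted p = 0.0648 by edgeR and 8.89e-05 by DESeq2), just under the fold threshold. With 1 library left out, DESeq2 called Fzd7 in 2 of 6 fits and edgeR in 1 of 6, the fit without old replicate 1, where the log2FC was -1.15. Fzd2 had 103, 114 and 157 CPM in young and 152, 177 and 185 CPM in old. Its groups overlapped through young replicate 3, with a log2FC of 0.46 (adjusted p = 0.203 by edgeR and 0.144 by DESeq2). Ror2, a tyrosine-kinase-like receptor of Wnt5a, had 18.3, 16.4 and 27.0 CPM in young and 32.5, 26.5 and 36.0 CPM in old, with young replicate 3 just above old replicate 2. The log2FC of Ror2 was 0.62 (adjusted p = 0.175 by edgeR and 0.0919 by DESeq2), and its relative Ror1 had 0.56 (adjusted p = 0.232 by edgeR). Lgr4, a receptor for R-spondins, had 43.5, 41.5 and 56.0 CPM in young and 77.5, 53.8 and 71.4 CPM in old (log2FC 0.52, adjusted p = 0.172 by edgeR and 0.0959 by DESeq2). Young replicate 3 was above old replicate 2, so the groups overlapped.

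Lrp6 and Lrp5 are the co-receptors of the canonical branch. Lrp6 had 139, 145 and 115 CPM in young and 121, 135 and 134 CPM in old, with a log2FC of -0.03 and a 95% interval of -0.32 to 0.25. Lrp5 had 32.9, 36.0 and 33.1 CPM in young and 27.6, 28.1 and 32.0 CPM in old. The old libraries of Lrp5 all lay below the young ones by a small margin (log2FC -0.22, 95% interval -0.45 to 0.01, adjusted p = 0.239 by edgeR). Ryk, another Wnt receptor, had 191, 200.4 and 207 CPM in young and 219, 179 and 168 CPM in old (95% interval of the log2FC -0.38 to 0.22). Fzd8 had the largest standard error of the Frizzled genes, with 31.8, 73.8 and 154 CPM in young and 19.7, 17.7 and 78.8 CPM in old, and its log2FC of -1.16 had a standard error of 0.77. The highest Fzd8 value of each age was in replicate 3. Fzd3, Fzd4, Fzd5, Fzd6 and Lgr6 had overlapping groups and log2FC values from -0.15 to 0.63.

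**Figure D3:**
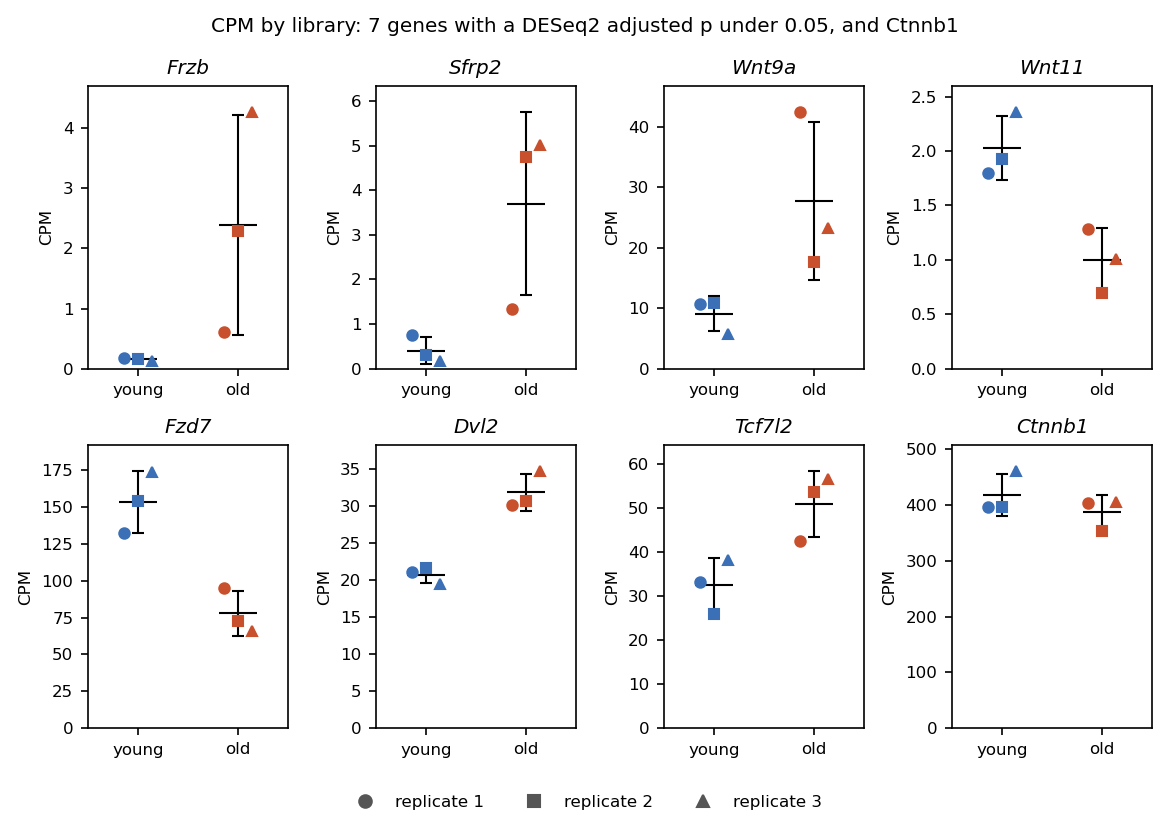
CPM (y axis, linear, from 0) by library is shown for the 7 genes with a DESeq2 adjusted p under 0.05 and for Ctnnb1, with young and old side by side, marker shapes for replicate numbers, and lines for the mean and SD of 3 libraries. The groups are apart for the first 7 genes and overlap for Ctnnb1, whose means are 418 and 388 CPM.

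Inside the cell, the β-catenin machinery had log2FC values near 0. Ctnnb1 (ENSRNOG00000054172) had 396, 396 and 461 CPM in young and 404, 354 and 405 CPM in old. Its log2FC of -0.11 had a 95% interval of -0.39 to 0.18, and the groups overlapped. Gsk3b, the kinase that marks β-catenin, had 65.5, 65.5 and 75.7 CPM in young and 71.5, 57.3 and 65.1 CPM in old, with overlapping groups (log2FC -0.09, 95% interval -0.37 to 0.19). Apc, a scaffold of the same complex, had 116, 106 and 120.4 CPM in young and 104, 101 and 125 CPM in old, a log2FC of -0.05 (95% interval -0.33 to 0.22). Axin1, the constitutive Axin, had a log2FC of 0.08 (95% interval -0.13 to 0.28). These intervals concern transcript levels, and β-catenin is mainly controlled as a protein.

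Dvl2 (ENSRNOG00000017915) is 1 of 3 Dishevelled genes, whose proteins pass the signal on from Frizzled. It had 21.1, 21.6 and 19.5 CPM in young and 30.2, 30.7 and 34.8 CPM in old. The spread within each age was small and the groups did not overlap, with a log2FC of 0.62 (SE 0.10, adjusted p = 0.0574 by edgeR and 2.09e-05 by DESeq2) that was under the fold threshold. Dvl1 had a log2FC of 0.17 (95% interval -0.22 to 0.57) and Dvl3 of -0.22 (95% interval -0.53 to 0.10), both with overlapping groups. Whether Dvl2 differed from Dvl1 and Dvl3 in its change was not tested. In the nucleus, Tcf7l2 (ENSRNOG00000049232) had 33.1, 26.0 and 38.2 CPM in young and 42.4, 53.6 and 56.6 CPM in old. The lowest old library was above the highest young one, and the log2FC was 0.65 (SE 0.18, adjusted p = 0.123 by edgeR and 0.0272 by DESeq2). Its relative Tcf7l1 had 4.85, 6.18 and 13.9 CPM in young and 8.64, 6.33 and 10.9 CPM in old, with overlapping groups. Counting DESeq2's adjusted p alone, with no minimum fold change, 7 of the 48 genes passed (14.6%, background 12.5%): the 4 named first, with Fzd7, Dvl2 and Tcf7l2.

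Several members are also transcribed in response to the canonical pathway in many tissues, and their levels are often read as its output. These are Axin2, Nkd1 and Nkd2, which dampen the signal, Tcf7 and Lef1, which act in the nucleus, and the receptor Lgr5. Axin2 had 12.8, 10.1 and 7.02 CPM in young and 17.8, 6.08 and 7.18 CPM in old. Old replicate 1 was the highest of the 6 libraries and old replicate 2 the lowest, so the log2FC of 0.05 (95% interval -1.04 to 1.14) averaged unlike libraries, and it was -0.59 without old replicate 1. Nkd1 had 5.05, 5.35 and 6.33 CPM in young and 11.7, 5.60 and 6.62 CPM in old, with old replicate 1 again the highest. Tcf7 had 7.16, 5.45 and 4.36 CPM in young and 9.47, 4.14 and 5.90 CPM in old, in the same order of old libraries as Axin2. Lgr5 had 57.2, 12.2 and 0.407 CPM in young and 159.7, 80.9 and 21.6 CPM in old (log2FC 1.91, SE 1.41). The highest library for Axin2, Nkd1, Tcf7 and Lgr5 was therefore the same one, old replicate 1, which was also the highest for the ligand Wnt9a. Of the 48 Wnt genes, old replicate 3 was the highest library for 15, young replicate 3 for 11 and old replicate 1 for 10. The share over all genes was not counted. The grouping was noticed after the values were seen and was not tested. Lef1 and Nkd2 did not share it. Lef1 had 1.42, 2.29 and 5.03 CPM in young and 2.37, 0.827 and 3.04 CPM in old, highest in young replicate 3. Nkd2 had 331, 389.7 and 170.4 CPM in young and 241, 149 and 133 CPM in old, with overlapping groups (log2FC -0.77, adjusted p = 0.257 by edgeR). For these 6 genes, 0 passed the threshold on the adjusted p in edgeR or DESeq2 with all libraries, while Lgr5 did reach the fold threshold.

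**Figure D4:**
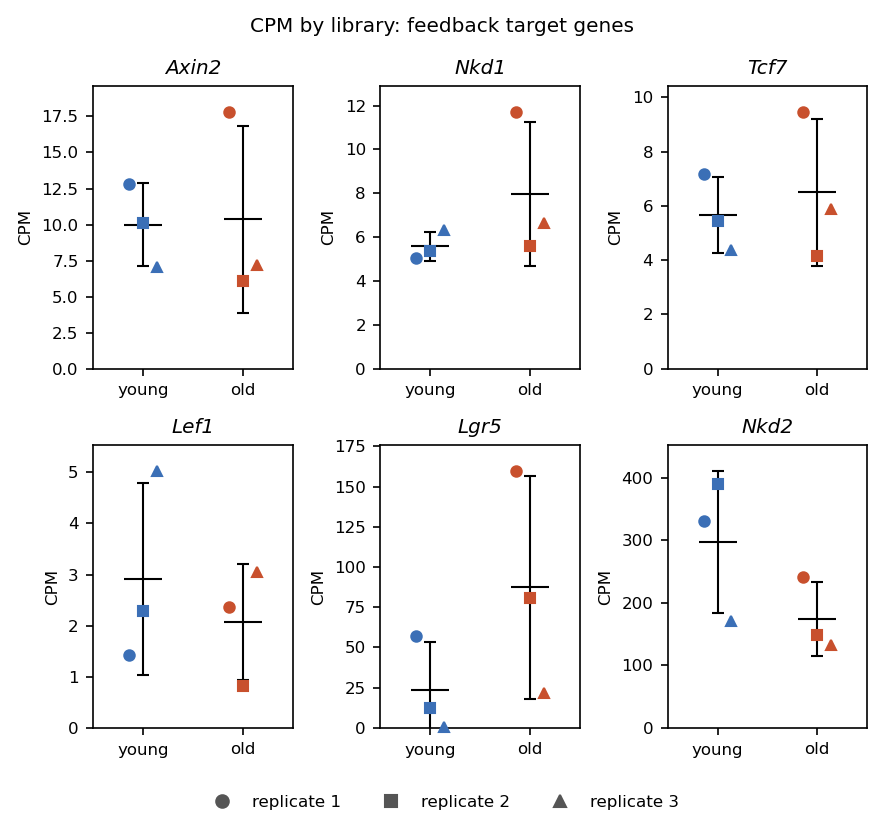
CPM (y axis, linear, from 0) by library is shown for Axin2, Nkd1, Tcf7, Lef1, Lgr5 and Nkd2, with young and old side by side, marker shapes for replicate numbers, and lines for the mean and SD of 3 libraries, with bars ending at 0 where they would pass below it. Old replicate 1 (circle) is the highest library for Axin2, Nkd1, Tcf7 and Lgr5, and the ages overlap in all 6 panels.

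The letters CTTTGAA and CTTTGAT, to which Tcf7 and Lef1 proteins can bind, were looked for on both strands in the 250 bases before the RefSeq start of each gene (assembly GRCr8, a later build than that of the counts). Of the 48 genes, 35 had a promoter in the RefSeq table. CTTTGAA or CTTTGAT was found in 2 of these 35 (5.71%), Axin2 and Nkd1, and in 7.58% of 33469 promoters. These motifs differ only in their last letter, so a stretch that matches one does not match the other on the same strand. The promoters of these feedback genes are shown for the matches, in capitals, and those of Frzb and Sfrp2 because these antagonists differed most between the ages. All 4 are the 250 bases upstream of the start, 5′ to 3′ on the strand of the gene, Axin2 at chr10:94398535-94398784, plus strand, Nkd1 at chr19:34722847-34723096, minus strand, Frzb at chr3:85772097-85772346, minus strand and Sfrp2 at chr2:171387286-171387535, plus strand.
Axin2: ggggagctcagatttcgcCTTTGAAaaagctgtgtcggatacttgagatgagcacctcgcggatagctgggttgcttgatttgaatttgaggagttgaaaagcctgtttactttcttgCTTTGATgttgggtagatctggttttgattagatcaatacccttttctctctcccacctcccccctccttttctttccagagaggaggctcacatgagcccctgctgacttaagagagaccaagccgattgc
Nkd1: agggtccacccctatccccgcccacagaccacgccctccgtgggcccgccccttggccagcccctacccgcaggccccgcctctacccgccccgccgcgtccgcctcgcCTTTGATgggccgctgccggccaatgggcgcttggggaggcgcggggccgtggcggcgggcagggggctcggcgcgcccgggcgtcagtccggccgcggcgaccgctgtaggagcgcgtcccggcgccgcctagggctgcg
Frzb: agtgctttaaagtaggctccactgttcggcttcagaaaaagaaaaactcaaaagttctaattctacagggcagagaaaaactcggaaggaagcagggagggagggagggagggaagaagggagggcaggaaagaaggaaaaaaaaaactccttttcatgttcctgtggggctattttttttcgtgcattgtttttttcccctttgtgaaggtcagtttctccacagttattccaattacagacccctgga
Sfrp2: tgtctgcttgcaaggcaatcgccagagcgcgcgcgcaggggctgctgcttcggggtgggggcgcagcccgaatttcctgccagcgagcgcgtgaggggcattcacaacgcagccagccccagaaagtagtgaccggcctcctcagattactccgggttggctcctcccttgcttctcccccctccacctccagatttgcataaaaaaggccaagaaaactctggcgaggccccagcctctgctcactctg
In Axin2, CTTTGAA lay 232 to 226 bases and CTTTGAT 132 to 126 bases before the start, and in Nkd1, CTTTGAT lay 141 to 135 bases before it. The Frzb and Sfrp2 windows, and those of Wnt9a, Wnt11, Fzd7, Dvl2 and Tcf7l2, held neither set of letters. GC content was 43.6% for Frzb and 62.4% for Sfrp2, beside a median of 51.2% over all promoters. A match describes the letters only, and no binding was measured. A CArG box, the element bound by serum response factor in contractile genes, was found in 1 of the 35 promoters (Lgr4, 2.86%) and in 1.5% of all promoters.

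Other genes of the pathway were taken from 5 lists. Among 11 receptor-level modulators with a row, DESeq2 called 2 upward (18.2%, background 2.30%) and 2 downward (18.2%, background 3.38%). Draxin, a secreted inhibitor that binds Lrp6, had 0.111, 0.0997 and 0.0611 CPM in young and 2.67, 2.52 and 0.187 CPM in old, from 5, 6 and 3 counts and 133, 131 and 10 counts, so old replicate 3 lay only just above the young libraries. It reached 10 counts in the 3 old libraries alone and is in the table only through the group where it is high, so its DESeq2 call, 1 of the 2 upward, supports nothing about the list. Trabd2b (Tiki2), a protease that cuts and inactivates Wnt ligands, had 78.2, 44.5 and 24.9 CPM in young and 173, 115 and 255 CPM in old, with a log2FC of 1.88 (adjusted p = 0.111 by edgeR and 0.00109 by DESeq2). Each of its old libraries was above each young one. Gpc4, a cell-surface glypican, had 108, 191 and 361 CPM in young and 73.5, 103 and 96.6 CPM in old (log2FC -1.27, adjusted p = 0.0269 by DESeq2). Tspan12, a membrane partner of Fzd4, had 15.9, 14.2 and 22.3 CPM in young and 11.5, 8.29 and 6.34 CPM in old (adjusted p = 0.0131 by DESeq2). For Gpc4 and Tspan12 each old library was below each young one, with adjusted p of 0.166 and 0.122 by edgeR.

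In the list of the planar polarity and calcium branch, 29 genes had a row, 12 higher and 17 lower in old. Of these, DESeq2 called 1 upward (3.45%, background 2.30%) and 2 downward (6.90%, background 3.38%). Rock2, a kinase that raises actomyosin contraction, had 794, 780.4 and 915 CPM in young and 492, 355 and 356 CPM in old, with a log2FC of -1.05 (adjusted p = 0.0600 by edgeR and 1.93e-06 by DESeq2). The phospholipase Plcb1 was higher, at 4.85, 1.93 and 4.25 CPM in young and 11.1, 11.8 and 13.0 CPM in old (adjusted p = 0.000121 by DESeq2), and its relative Plcb4 was lower, at 72.5, 99.0 and 189 CPM and 43.8, 53.6 and 59.3 CPM (adjusted p = 0.0141 by DESeq2). By edgeR the adjusted p was 0.0762 for Plcb1 and 0.137 for Plcb4. These kinases and lipases serve many pathways other than Wnt. DESeq2 called 0 of the 27 cytoplasmic genes, 0 of the 19 nuclear cofactors and 0 of the 21 canonical target genes with a row. Its share over all genes tested was 5.68%. edgeR called 0 in each of the 5 lists, beside 0.00691% of all genes. At an unadjusted p under 0.05, where 22.6% of all genes passed, edgeR gave 6 modulators (54.5%, Draxin included), 6 cytoplasmic genes (22.2%), 1 nuclear cofactor (5.26%), 6 planar polarity and calcium genes (20.7%) and 4 target genes (19.0%). The lowest p of the 3 lists without a call belonged to Siah1 (log2FC 0.51), Ruvbl1 (-0.38) and Cd44 (-0.85). Cd44, a hyaluronan receptor and target gene, had 398, 415 and 427 CPM in young and 268, 192 and 229 CPM in old. Its groups did not overlap (adjusted p = 0.0636 by edgeR and 1.27e-05 by DESeq2), and its log2FC was under the threshold. The median log2FC values were -0.43 for the modulators, 0.06 for the cytoplasmic genes, -0.03 for the nuclear cofactors, -0.12 for the planar polarity and calcium genes and 0.01 for the target genes, of which 11 were higher and 10 lower.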

How the data were processed

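RNA of cultured VSM cells was sequenced in 3 young and 3 old libraries, from 3 rats per group. The authors deposited raw gene counts, without normalization, after trimming with Cutadapt 3.5 through Trim Galore 0.6.7, alignment with STAR 2.7.10b to Rnor 6.0, counting with featureCounts (Subread 2.0.8) and removal of low-count genes. Every gene kept in the table reached 10 counts in 3 or more libraries. How featureCounts treated strand, multi-mapping reads and mates is not given in sources used here. Between 68.7% and 71.1% of counts from 1 to 19 were even. Summed counts of each library, 44235674 to 59700887, were above the range of reads per sample that the paper gives. Whether mates were counted separately was not tested, and if they were, 10 counts would stand for fewer than 10 fragments. Old was tested against young with edgeR 4.0.16 in R 4.3.3 (TMM, quasi-likelihood F test, Benjamini-Hochberg adjustment over 14475 genes, no covariates). DESeq2 1.42.0, a release other than the study's, gave an adjusted p to 14183 genes, and limma 3.58.1 was an alternative. Standard errors are the absolute log2 fold change over the root of F, and intervals are 95%. Each test was also run on counts simulated with edgeR's dispersions and known changes, which cannot show why the tests differ on these data. The members, gene lists, named-gene rule (unadjusted p under 0.05 or a call, the highest mean CPM of each role without length correction, feedback and core genes) and alternatives were chosen with earlier results of these data known.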

Additional observations from a re-analysis of the deposited data

How the results depend on the processing

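Of the 48 Wnt genes, edgeR called 0 with all libraries, and also 0 with RLE factors, library size only, filterByExpr, a mean above 1 CPM, halved counts or no minimum fold change, and limma-voom called 0. DESeq2 called 4, or 7 with no minimum fold change, a setting added after the data were seen. With adjusted p under 0.1 and the fold threshold kept, edgeR called 2 (Frzb and Sfrp2). With each library left out edgeR called 0 to 3, and DESeq2 called 4, 3, 5, 7, 3 and 4 without young replicates 1, 2 and 3 and old replicates 1, 2 and 3. Calls over all genes were not counted for these DESeq2 fits, so their Wnt counts have no background beside them. Over all genes the 1 call became 805 in DESeq2, 1767 there with no minimum fold change, 0 in limma-voom, 381 with adjusted p under 0.1 and 0 to 732 with each library left out, 732 without old replicate 1. The cause was not tested.

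Whether the replicate numbers of the labels pair the libraries was not settled. Deviations from the group mean correlated at 0.06, 0.30 and 0.28 between same-numbered libraries, and differently numbered libraries were not compared. With the number as a block, 0 Wnt genes and 1 gene of all were called. That 1 gene was higher in old, while the 1 called without the block was lower. The median log2 fold change of the Wnt genes was 0.115 with the block, against 0.0504 without it. The median was -0.0417 to 0.132 with each library left out, the lowest without old replicate 3 and the highest without young replicate 3.

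The log2 fold changes of 7 named genes turned direction. Axin2 was at -0.0852 in limma-voom, -0.0725 with the block and -0.59 to 0.32 with each library left out. With each library left out Wnt5a was at -0.10 to 0.74, Lrp6 at -0.1294 to 0.0361, Dkk3 at -0.15 to 0.80, Apc at -0.155 to 0.0037, Lef1 at -0.87 to 0.16 and Tcf7 at -0.17 to 0.44. The other 18 named genes kept their direction in every setting compared. Directions in the DESeq2 fits with 1 library left out were not compared.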
